A study of Mus musculus with 6 samples.

Results

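The genes described here encode elastin and the proteins that build the elastic fibre. They are 10 of the 49548 genes in the deposited count table, chosen by symbol: *Eln*, the fibrillins *Fbn1* and *Fbn2*, the microfibril-associated proteins *Mfap2*, *Mfap4* and *Mfap5*, the short fibulins *Fbln5*, *Efemp1* and *Efemp2*, and *Emilin1*. The mRNA came from native cardiac fibroblasts (CFs), meaning cells taken straight from the heart, though the labels also name a culture medium, of 3 wildtype (WT) and 3 CharmeKO mice. All mice were C57BL/6J and 5 weeks old. The CharmeKO allele carries a polyadenylation signal placed in the locus of the lncRNA Charme, and WT mice carry no such insertion. Hearts were digested with enzymes, red blood cells were lysed and cells of the hematopoietic lineage were removed on magnetic beads, so that other non-myocyte cells of the heart can remain in the preparation. The question of the comparison is how the fibroblast transcriptome differs between WT and CharmeKO hearts. The paper describes Charme as restricted to skeletal and cardiac muscle, and as very low in native CFs. It states that adult CFs do not express it.

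An elastic fibre consists of a core of crosslinked elastin on a scaffold of microfibrils. Fibrillins form the microfibrils, the microfibril-associated proteins sit on them, short fibulins carry tropoelastin and lysyl oxidase to them, and emilin-1 lies where core and microfibril meet. Elastic fibres give recoil to arteries, heart valves and the epicardial layer, and microfibrils also hold TGF-beta in its latent form.

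*Eln* and *Mfap4* fell in CharmeKO CFs by edgeR, the test meant wherever none is named. *Eln*, the elastin gene, went from 2164 ± 682 CPM (SD, n = 3) to 749 ± 215 CPM (SD, n = 3), and *Mfap4* from 426 ± 106 to 224 ± 32.6 CPM (SD, n = 3 each), where CPM is the TMM-normalised count scaled to library size. *Fbn1*, *Fbn2*, *Mfap2* and *Mfap5* had lower means in CharmeKO and did not pass the edgeR test, while DESeq2 called *Mfap2* and *Mfap5* lower, and the short fibulins and *Emilin1* had differences of less than 0.5 on the log2 scale that passed neither test.

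Upstream sequence is shown for 4 members, which are *Mfap2*, a microfibril gene with lower values in CharmeKO (called by DESeq2 and not by edgeR), and the 3 short fibulin genes, called by neither. The groups did not overlap for *Mfap2*, lower in CharmeKO, or for *Efemp1*, higher in CharmeKO. The sequences are from RefSeq on build GRCm38.p6, which is not the build of the counts. Of the 10 members 6 matched by symbol, and *Eln*, *Mfap4*, *Mfap5* and *Fbn2* did not. *Fbn1* and *Emilin1* are not shown because the farthest upstream base of their windows lies in an annotated exon, so that trimming left no stretch. Each window holds up to 250 bases before the start of the gene, without bases of annotated exons. Capitals mark matches, on either strand, to 4 motifs: the GC box GGGCGG, the TATA box TATAAA, the AP-1 motif TGANTCA and the SMAD motif CAGACA.
*Mfap2*, chr4:141010174-141010417, plus strand: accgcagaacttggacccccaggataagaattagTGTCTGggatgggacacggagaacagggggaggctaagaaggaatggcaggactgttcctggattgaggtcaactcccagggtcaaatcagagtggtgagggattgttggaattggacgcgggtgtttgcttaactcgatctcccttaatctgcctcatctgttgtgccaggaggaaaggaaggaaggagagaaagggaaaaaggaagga
*Fbln5*, chr12:101819120-101819369, minus strand: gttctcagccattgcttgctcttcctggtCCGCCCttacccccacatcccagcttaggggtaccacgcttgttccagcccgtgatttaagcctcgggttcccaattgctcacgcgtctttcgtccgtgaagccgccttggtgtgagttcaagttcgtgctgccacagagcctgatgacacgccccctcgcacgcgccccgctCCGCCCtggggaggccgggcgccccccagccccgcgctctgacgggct
*Efemp1*, chr11:28852955-28853203, plus strand: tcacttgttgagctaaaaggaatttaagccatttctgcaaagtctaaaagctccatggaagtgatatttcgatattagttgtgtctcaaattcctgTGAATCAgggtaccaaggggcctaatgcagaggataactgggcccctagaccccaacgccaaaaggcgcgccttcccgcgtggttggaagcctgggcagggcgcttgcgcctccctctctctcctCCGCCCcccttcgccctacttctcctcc
*Efemp2*, chr19:5473696-5473945, plus strand: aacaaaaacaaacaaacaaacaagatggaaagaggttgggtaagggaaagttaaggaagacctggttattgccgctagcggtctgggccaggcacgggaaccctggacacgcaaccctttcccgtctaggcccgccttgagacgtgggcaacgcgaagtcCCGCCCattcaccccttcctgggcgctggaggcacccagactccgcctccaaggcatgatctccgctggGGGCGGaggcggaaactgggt

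The *Mfap2* window held 1 SMAD motif and 0 GC boxes, while the windows of *Fbln5* and *Efemp2* held 2 GC boxes each and that of *Efemp1* held 1 GC box and 1 AP-1 motif. The 3 fibulin windows held 0 SMAD motifs, and the TATA box had 0 matches in all 4 windows. Among 32851 promoters of 250 bases, 32.7% held the GC box, 12.4% the TATA box, 6.75% the AP-1 motif and 17.1% the SMAD motif. These matches describe the letters only.

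The 6 libraries held 9595701 to 42101393 counts, WT 3 being the shallowest, and 15789 genes passed the filter of at least 10 counts in at least 2 libraries, all 10 members among them. Charme itself had 26, 15 and 4 counts in WT 1, 2 and 3 and 7, 0 and 0 counts in CharmeKO 1, 2 and 3, or 0.611, 0.570 and 0.430 CPM in WT and 0.244, 0 and 0 CPM in CharmeKO. The groups were apart, but Charme did not pass the threshold (adjusted p = 0.362 from edgeR and 0.308 from DESeq2). The limit that a count of 0 allows in a library is 3 counts (0.0713 to 0.313 CPM, counting error only), and WT 3 at 4 counts lay close to it. Each group held libraries high in Xist and libraries with Y-linked transcripts, and log2 differences within these splits are given for all 10 members. Each library is labelled as 1 replicate, and p-values set the difference between the groups against the spread between these samples. In bulk RNA, fewer cells of a type and less RNA per cell cannot be told apart. The transcripts of 12 cell types or states were summed as a check of the label. Fibroblast markers summed to 31200 to 37700 CPM in WT and 29700 to 34800 CPM in CharmeKO, with 0 of 8 called by edgeR and *Col1a1* called lower by DESeq2. *Gsn*, at 17330 to 26439 CPM, made up most of the sum, and within the list *Col1a1* and *Col1a2* had log2 fold changes of −0.77 and −0.54, *Pdgfra* of −0.05 and *Dcn* of 0.29.

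Elastin is the polymer of the fibre's core. The level of *Eln* (ENSMUSG00000029675, chromosome 5) was 2033, 1558 and 2902 CPM in WT 1, 2 and 3 and 549, 721 and 977 CPM in CharmeKO 1, 2 and 3. Every CharmeKO library was below every WT library. The gene was 2.89-fold lower, or −1.53 on the log2 scale (standard error 0.25, 95% interval −2.07 to −0.99), and passed the threshold (edgeR quasi-likelihood F test, adjusted p = 0.0135 by Benjamini-Hochberg over all tested genes). By mean CPM it ranked 39 among all tested genes in WT and 157 in CharmeKO. DESeq2 gave a log2 fold change of −1.54 and an adjusted p of 1.05e-09. The log2 fold change stayed between −1.77 and −1.26 when any 1 library was left out, but the edgeR call was lost without WT 3 (−1.26, adjusted p = 0.0523), without CharmeKO 1 (−1.35, adjusted p = 0.107) and without CharmeKO 2 (−1.50, adjusted p = 0.105). Among libraries with Xist (1 WT, 2 CharmeKO) the log2 difference was −1.69, and among those with Y-linked transcripts (2 WT, 1 CharmeKO) it was −1.12.

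**Figure D1:**
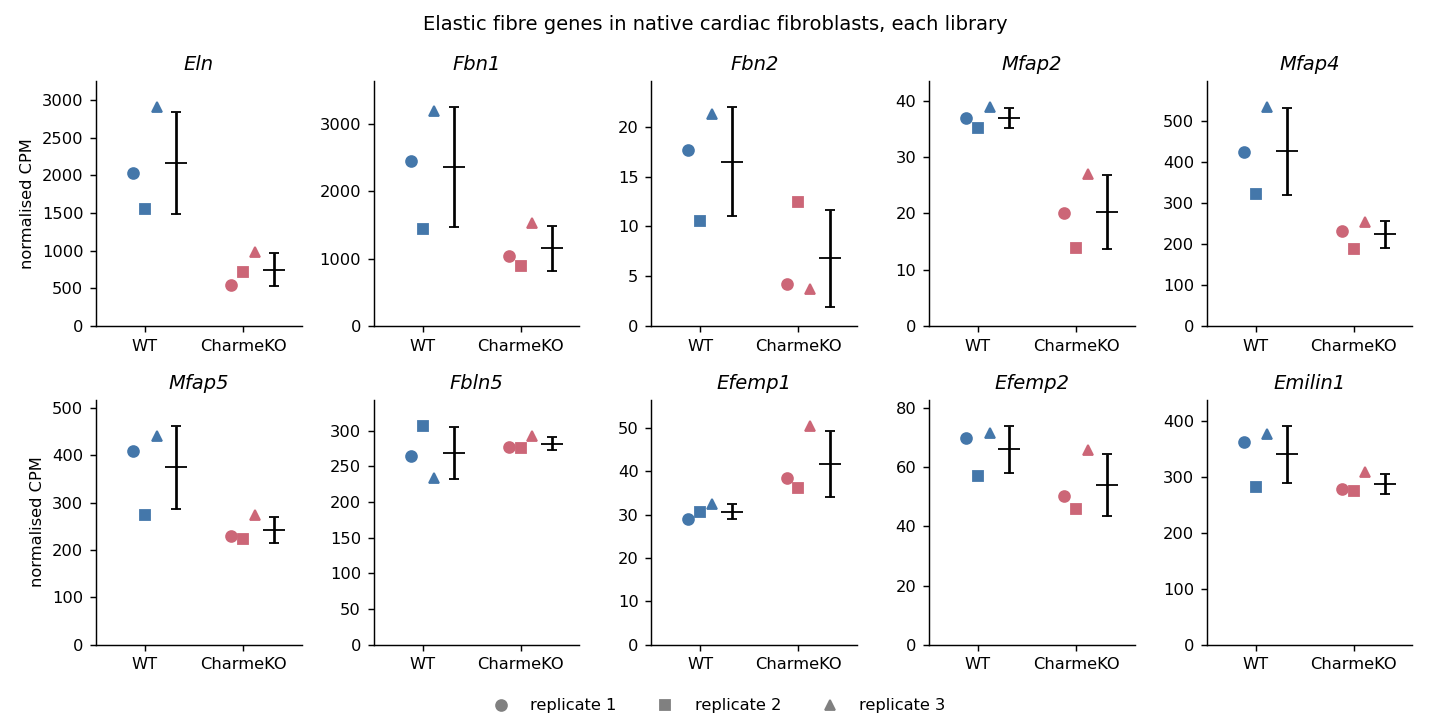
Normalised CPM of the 10 elastic fibre genes, with 1 panel a gene, each axis starting at 0, WT in blue and CharmeKO in red. Each marker is 1 library, its shape giving the replicate number, and the bar beside each group is the mean ± SD of 3 libraries. *Eln* at 549 to 977 CPM in CharmeKO lay below its WT range of 1558 to 2902 CPM, while *Fbln5* overlapped between the groups.

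The fibrillins are large glycoproteins that polymerise into microfibrils, *Fbn1* encoding the main adult form and *Fbn2* the form best known from development. *Fbn1* (ENSMUSG00000027204, chromosome 2) was at 2447, 1433 and 3192 CPM in WT 1, 2 and 3 and at 1034, 895 and 1529 CPM in CharmeKO 1, 2 and 3. The groups overlapped, since CharmeKO 3 lay above WT 2. Its log2 fold change was −1.03 (standard error 0.27, 95% interval −1.63 to −0.44, adjusted p = 0.143 from edgeR), and with 1 library left out it ranged from −1.29 to −0.75. It passed the threshold without WT 2 (−1.29, adjusted p = 0.00687) and in none of the other 5 such fits (adjusted p from 0.0830 to 0.530, with −0.75 and 0.454 without WT 3). Within the Xist and Y-linked splits its log2 differences were −1.35 and −0.48.

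*Fbn2* (ENSMUSG00000024598) was the least abundant member, at 17.7, 10.5 and 21.3 CPM in the WT libraries and 4.26, 12.4 and 3.71 CPM in CharmeKO 1, 2 and 3. CharmeKO 2 lay above WT 2, and the other CharmeKO libraries lay below every WT library. The log2 fold change was −1.27 (standard error 0.41, 95% interval −2.17 to −0.37, adjusted p = 0.238 from edgeR). Without CharmeKO 2 it was −2.03 with an edgeR adjusted p of 0.0171, and without any other single library it was between −1.52 and −0.98 and did not pass (adjusted p from 0.0787 to 0.570). Within the Xist and Y-linked splits *Fbn2* differed by −1.28 and −2.01. The coefficient of variation of *Fbn2* was 33.2% in WT and 71.8% in CharmeKO, against 37.5% and 28.9% for *Fbn1*.

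The 3 microfibril-associated proteins differed in the same direction. *Mfap4*, a fibrinogen-domain protein that binds tropoelastin and fibrillin-1, is encoded on chromosome 11 (ENSMUSG00000042436). It was at 424, 321 and 533 CPM in WT 1, 2 and 3 and at 231, 188 and 252 CPM in CharmeKO 1, 2 and 3. All CharmeKO libraries lay below all WT libraries. It was 1.90-fold lower (log2 fold change −0.93, standard error 0.18, 95% interval −1.33 to −0.52, adjusted p = 0.0443 from edgeR), and DESeq2 gave an adjusted p of 3.86e-05. The edgeR call held when WT 2 was left out (adjusted p = 0.00283) and was lost without WT 1 (0.129), WT 3 (0.181), CharmeKO 1 (0.211), CharmeKO 2 (0.264) and CharmeKO 3 (0.0596), with log2 fold changes between −1.10 and −0.74. It was also lost with a term for the split by Xist (adjusted p = 0.0839), within which the log2 differences were −1.03 and −0.71.

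*Mfap2* and *Mfap5* encode MAGP-1 and MAGP-2, small glycoproteins of the microfibril surface. *Mfap2* (ENSMUSG00000060572, chromosome 4) was at 36.8, 35.2 and 38.8 CPM in the WT libraries and 20.0, 13.8 and 26.9 CPM in CharmeKO 1, 2 and 3. The WT libraries lay close together, with a coefficient of variation of 4.88%, and those of CharmeKO spread over 32.5% without reaching them. The log2 fold change was −0.86 (standard error 0.20, 95% interval −1.30 to −0.42), with an adjusted p of 0.0940 from edgeR and 0.00421 from DESeq2. Leaving out CharmeKO 3 moved it to −1.12, with an edgeR adjusted p of 0.0208. The other 5 such fits did not pass (adjusted p from 0.0562 to 0.329), the smallest change being −0.65 without CharmeKO 2 (adjusted p = 0.237).

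*Mfap5* (ENSMUSG00000030116, chromosome 6) was at 408, 274.5 and 440.3 CPM in WT 1, 2 and 3 and at 229, 222 and 274.1 CPM in CharmeKO 1, 2 and 3. The groups met without overlapping, at WT 2 and CharmeKO 3. Its log2 fold change was −0.63 (standard error 0.17, 95% interval −1.01 to −0.25), with an adjusted p of 0.168 from edgeR and 0.0150 from DESeq2. Without WT 2 it was −0.81, with an edgeR adjusted p of 0.00744. The other 5 such fits did not pass (adjusted p from 0.133 to 0.545), the smallest change being −0.50 without WT 3 (adjusted p = 0.483). Within the Xist and Y-linked splits *Mfap2* differed by −1.15 and −0.46 and *Mfap5* by −0.85 and −0.34.

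The short fibulins link elastin to microfibrils and crosslinking enzymes. *Fbln5* (ENSMUSG00000021186, chromosome 12) was at 265, 307 and 233 CPM in WT 1, 2 and 3 and at 277, 275 and 293 CPM in CharmeKO 1, 2 and 3, so that all CharmeKO libraries fell inside the WT range. The log2 fold change was 0.07 (standard error 0.13, adjusted p = 0.871 from edgeR), and its 95% interval of −0.22 to 0.35 does not reach the change measured for *Eln*. *Efemp2*, which encodes fibulin-4 (ENSMUSG00000024909, chromosome 19), was at 69.9, 57.0 and 71.6 CPM in WT 1, 2 and 3 and 50.3, 46.0 and 66.0 CPM in CharmeKO 1, 2 and 3. These groups overlapped through WT 2 and CharmeKO 3, and the log2 fold change was −0.29 (standard error 0.15, 95% interval −0.61 to 0.04, adjusted p = 0.453 from edgeR).

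*Efemp1*, the fibulin-3 gene (ENSMUSG00000020467, chromosome 11), had the highest signed change of the members, though 6 members changed more by size. Its level was 29.1, 30.5 and 32.5 CPM in WT 1, 2 and 3 and 38.4, 36.3 and 50.5 CPM in CharmeKO 1, 2 and 3. Every CharmeKO library was above every WT library, with a log2 fold change of 0.45 (standard error 0.14, 95% interval 0.13 to 0.76) that did not pass the threshold (adjusted p = 0.232 from edgeR and 0.165 from DESeq2). With the trend with GC content and length removed it was 0.22 (edgeR adjusted p = 0.691). *Emilin1* (ENSMUSG00000029163, chromosome 5), whose product binds elastin and fibulin-5, was at 363, 283 and 378 CPM in WT 1, 2 and 3 and 279.6, 275 and 309 CPM in CharmeKO 1, 2 and 3. Its groups overlapped, and the log2 fold change was −0.24 (standard error 0.14, 95% interval −0.55 to 0.06, adjusted p = 0.494 from edgeR), or −0.11 with that trend removed (adjusted p = 0.860). Within the Xist and Y-linked splits the differences were 0.06 and 0.13 for *Fbln5*, 0.36 and 0.68 for *Efemp1* and −0.39 and −0.08 for *Emilin1*, and *Efemp2* changed sign between them, at −0.54 and 0.05.

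**Figure D2:**
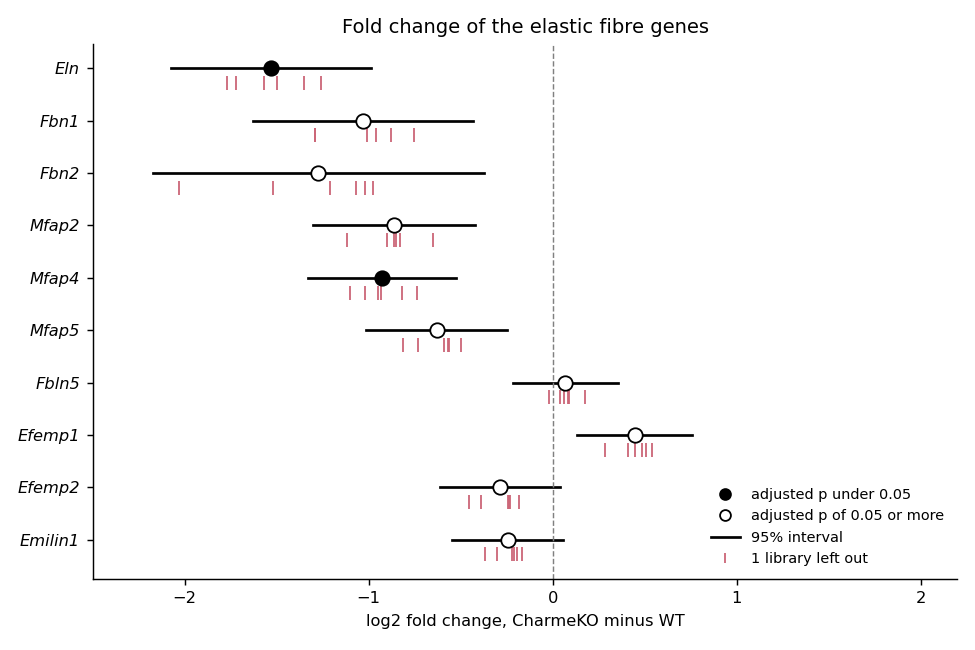
Log2 fold change of CharmeKO against WT for each elastic fibre gene, with the 95% interval as a line. Filled circles passed an edgeR adjusted p of 0.05, open circles did not, and red ticks under each line are the fold changes with 1 library left out. *Eln* and *Mfap4* are filled, and the ticks of *Fbln5* lie on both sides of 0, from −0.02 to 0.17.

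Of the 10 members, 2 were called lower and 0 higher by edgeR, where the background was 0.412% of all tested genes lower, 0.418% higher and 0.83% in either direction. DESeq2 called 4 lower, *Eln*, *Mfap2*, *Mfap4* and *Mfap5*, and 0 higher, with a background of 1.52% lower and 0.975% higher. At an unadjusted edgeR p under 0.05, 6 members were lower and 1 was higher, against 6.87% and 5.90% of all tested genes. The groups did not overlap for 4 members lower and 1 higher in CharmeKO, against 8.59% and 9.58% of all tested genes. The median log2 fold change was −0.75 over the members and 0.01 over all tested genes. The edgeR count of members called lower ranged from 0, without WT 3 or without CharmeKO 1, to 4, without WT 2. It was 1 without WT 1 (*Eln*) and without CharmeKO 2 (*Fbn2*). The edgeR count over all tested genes, in either direction, moved too. It was 131 with all 6 libraries, 349 without WT 2 and 189 without CharmeKO 3. Without WT 1 it was 71, without WT 3 67, without CharmeKO 1 61 and without CharmeKO 2 67.

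The libraries of a group were ordered alike across the members. WT 3 was the highest WT library for 9 of the 10 members, and WT 2 was the lowest for 8. In the same way, CharmeKO 3 was the highest CharmeKO library for 9 of the 10 and CharmeKO 2 the lowest for 8. In WT the exceptions were *Fbln5*, with WT 2 highest and WT 3 lowest, and *Efemp1*, with WT 1 lowest. In CharmeKO they were *Fbn2*, with CharmeKO 2 highest and CharmeKO 3 lowest, and *Eln*, with CharmeKO 1 lowest. Outside the members, *Col1a1*, *Col3a1* and *Loxl1* had the same highest and lowest libraries in both groups, while *Ltbp4* and *Mmp2* were highest in WT 2. The share of all tested genes with this order was not counted, so the order is not shown to be particular to the members.

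The summed level of the 10 members was 6093, 4309 and 7843 CPM in WT 1, 2 and 3 and 2713, 2686 and 3781 CPM in CharmeKO 1, 2 and 3. All CharmeKO sums lay below all WT sums, and the mean log2 sums differed by −0.97, or by −0.74 with *Eln* left out. *Eln* took 35.5% ± 1.89 of the sum in WT and 24.3% ± 3.59 in CharmeKO (SD, n = 3 each). *Fbn1* took 38.1% ± 4.14 and 37.3% ± 3.62 of it (SD, n = 3 each).

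Per kilobase of exon, a scale on which levels can be compared between genes, *Eln* was the highest member in WT, at 267 ± 84.2 CPM per kb (SD, n = 3). It was followed by *Mfap4* at 222 ± 55.1, *Fbn1* at 194 ± 72.8, *Mfap5* at 104 ± 24.5 and *Emilin1* at 69.1 ± 10.3 CPM per kb. Neighbours in this order overlapped in range across libraries, while within each WT library these genes kept the order. *Fbln5* at 38.8 ± 5.32 and *Mfap2* at 30.5 ± 1.49 CPM per kb stood apart from their neighbours, *Efemp2* at 17.5 ± 2.10 and *Efemp1* at 15.1 ± 0.832 overlapped, and *Fbn2* was far below at 1.25 ± 0.414 CPM per kb.

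In CharmeKO the per-length order began with *Mfap4* at 116 ± 17.0 CPM per kb, then *Fbn1* at 95.1 ± 27.5 and *Eln* at 92.5 ± 26.6 (SD, n = 3 each). *Eln*, *Fbn1*, *Mfap4* and *Mfap5* overlapped along this order, as did *Mfap5* at 67.4 ± 7.82 and *Emilin1* at 58.3 ± 3.75 CPM per kb. *Fbln5* was at 40.8 ± 1.37, *Efemp1* at 20.5 ± 3.78, *Mfap2* at 16.7 ± 5.43, *Efemp2* at 14.3 ± 2.78 and *Fbn2* at 0.515 ± 0.369 CPM per kb. *Efemp1* stood above *Mfap2* within each of CharmeKO 1, 2 and 3 (18.85, 17.8 and 24.81 against 16.55, 11.38 and 22.23 CPM per kb), though their ranges overlapped across libraries. In WT *Mfap2* lay above *Efemp1* in all libraries.

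**Figure D3:**
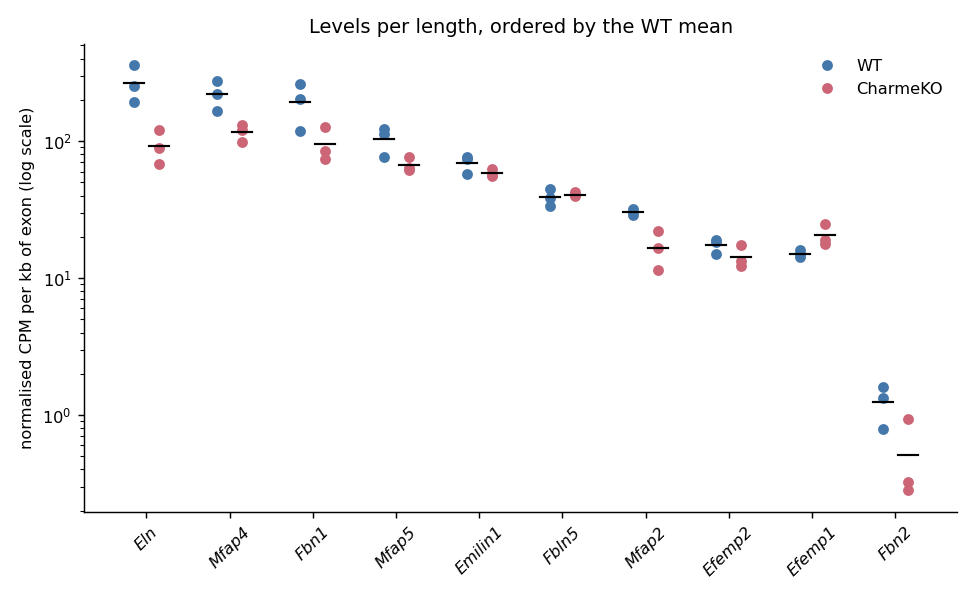
Normalised CPM per kilobase of exon on a log axis for the 10 elastic fibre genes, ordered by the WT mean. Points are libraries, WT in blue and CharmeKO in red, and black lines are means of 3 libraries. *Eln* is first in WT at 267 CPM per kb and lies behind *Mfap4* and *Fbn1* in CharmeKO at 92.5 CPM per kb.

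A ratio of 2 genes within a library does not depend on how libraries are scaled to each other. The log2 ratio of *Eln* to *Fbn1* counts was −0.27, 0.12 and −0.14 in WT 1, 2 and 3 and −0.91, −0.31 and −0.65 in CharmeKO 1, 2 and 3. The groups did not overlap, and the mean difference was −0.53 (two-sided exact permutation test, p = 0.1, adjusted p = 0.233 over 7 ratios). Designs of 3 against 3 cannot give an exact p below 0.1.

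The fibrillar collagens *Col1a1* and *Col3a1*, the main chains of collagens I and III, served as other references. The log2 ratio of *Eln* to *Col1a1* was −1.10, −1.01 and −0.68 in WT 1, 2 and 3 and −1.99, −1.26 and −1.72 in CharmeKO 1, 2 and 3, a difference of −0.73. That of *Eln* to *Col3a1* was −2.04, −1.74 and −1.60 in WT and −3.00, −2.27 and −2.80 in CharmeKO, a difference of −0.90. The groups overlapped for neither ratio, with p = 0.1 and adjusted p = 0.233 each in the exact permutation test.

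Ratios among microfibril and fibulin genes overlapped between the groups. The difference was 0.09 for *Mfap4* to *Fbn1* (p = 1.0, adjusted p = 1.0), −0.45 for *Fbn2* to *Fbn1* (p = 0.7, adjusted p = 0.817), 0.31 for *Mfap5* to *Mfap2* (p = 0.4, adjusted p = 0.56) and 0.38 for *Fbln5* to *Efemp2* (p = 0.2, adjusted p = 0.35), all by the exact permutation test. Leaving out CharmeKO 3 turned the *Fbn2* to *Fbn1* difference to 0.10. For ratios to *Fbln5*, chosen after the values were seen and given without a test, *Eln* differed by −1.60 with groups apart and *Fbn1* by −1.07 with groups that overlapped.

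**Figure D4:**
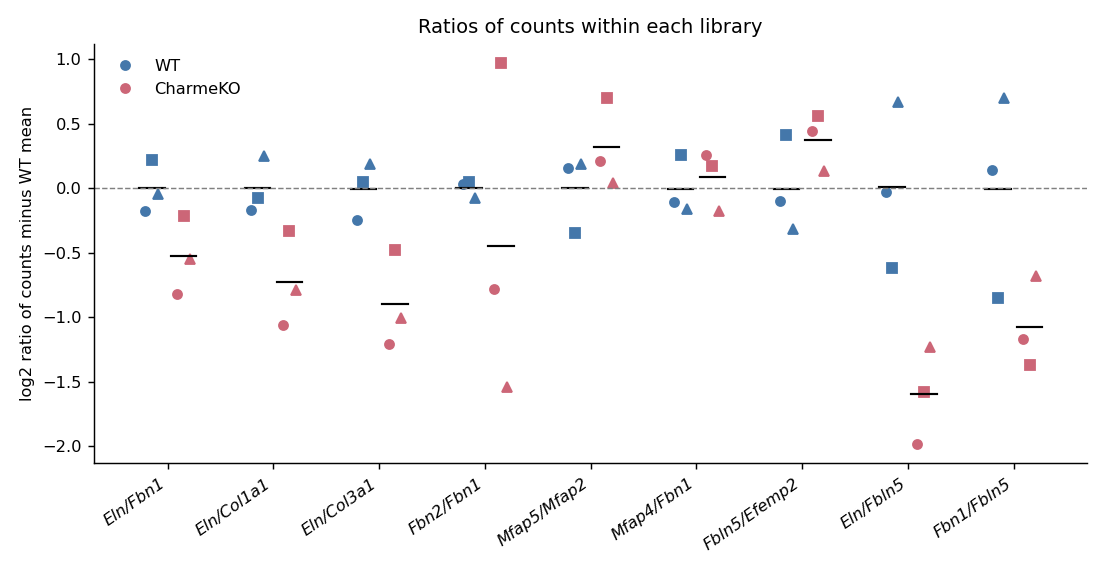
Log2 ratio of counts of a pair of genes within each library, less the WT mean of that ratio. Markers are libraries, with the shape giving the replicate number, WT in blue and CharmeKO in red, and black lines are group means. The 3 ratios of *Eln* to *Fbn1*, *Col1a1* and *Col3a1* lie lower in CharmeKO by 0.53, 0.73 and 0.90 on average, with no overlap.

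Beyond the 10 members, 44 genes of elastic fibre assembly, crosslinking, turnover and binding were listed and 40 were tested, *Mmp7*, *Mmp12*, *Elane* and *Itgb6* being under the filter. Of the 40, 28 had a lower and 12 a higher value in CharmeKO, with a median log2 fold change of −0.13, and edgeR called 1 lower and 0 higher. At the same time 48.8% of all tested genes had a lower value. DESeq2 called 9 of the 40 lower, *Ltbp2*, *Ltbp3*, *Adamts17*, *Adamtsl2*, *Adamtsl4*, *Thsd4*, *Mmp2*, *Mmp14* and *Itga5*, and 0 higher. Of all tested genes, edgeR called 0.412% lower and DESeq2 1.52%.

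The gene that edgeR called was *Ltbp2*, a latent TGF-beta binding protein that binds fibrillin-1 and fibulin-5 and, unlike its relatives, does not bind latent TGF-beta. It was at 63.8, 57.0 and 119 CPM in WT 1, 2 and 3 and 23.5, 21.5 and 41.2 CPM in CharmeKO 1, 2 and 3. All CharmeKO libraries were lower than all WT libraries, 2.76-fold on average (log2 fold change −1.46, standard error 0.29, adjusted p = 0.0452 from edgeR). The edgeR call was lost without WT 1 (−1.60, adjusted p = 0.0752), WT 3 (−1.07, 0.119), CharmeKO 1 (−1.34, 0.258) or CharmeKO 2 (−1.29, 0.264), and after removal of the trend with GC content and length (−1.33, 0.0690).

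*Ltbp4*, which guides elastin deposition together with fibulin-5, was the most abundant gene of the latent TGF-beta binding group. It was at 8664, 10261 and 9779 CPM in WT 1, 2 and 3 and 6463, 6903 and 8563 CPM in CharmeKO 1, 2 and 3. These groups were apart, but the log2 fold change of −0.39 (standard error 0.16) gave an adjusted p of 0.325 from edgeR. All 4 genes of the group had lower values in CharmeKO, with a median log2 fold change of −0.43.

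Lysyl oxidases crosslink elastin and collagen, with copper that the transporter *Atp7a* supplies. All 6 genes of this group had lower values in CharmeKO, 0 were called and the median log2 fold change was −0.20. *Loxl1*, the most abundant of them, was at 828, 699 and 1029 CPM in WT 1, 2 and 3 and 528, 447 and 752 CPM in CharmeKO 1, 2 and 3. The groups overlapped through WT 2 and CharmeKO 3, and the log2 fold change was −0.57 (standard error 0.20, adjusted p = 0.275 from edgeR).

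ADAMTS and ADAMTSL proteins bind fibrillins or take part in microfibril formation. In CharmeKO 7 of the 8 genes had lower values, with a median log2 fold change of −0.60. EdgeR called 0 of them and DESeq2 called 4 lower, against 1.52% of all tested genes called lower by DESeq2. *Adamts10*, the one with the highest mean over all 6 libraries, was at 325, 422 and 349.5 CPM in WT 1, 2 and 3 and 324, 315 and 370.1 CPM in CharmeKO 1, 2 and 3. Its groups overlapped (log2 fold change −0.12, standard error 0.14, adjusted p = 0.780 from edgeR). *Adamtsl2*, which had the highest WT mean, was at 411, 305 and 492 CPM in WT 1, 2 and 3 and 156, 266 and 222 CPM in CharmeKO 1, 2 and 3. Its groups were apart (log2 fold change −0.91, adjusted p = 0.0940 from edgeR and 0.000672 from DESeq2), as were those of *Adamts17* (−1.94, adjusted p = 0.0583 and 0.0494).

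The long fibulins, other emilins and multimerins went with neither direction. Of 7 genes, 2 had lower and 5 higher values, 0 were called, and the median log2 fold change was 0.17. Among the higher ones, *Emilin3* had only 1 to 23 counts in a library and *Fbln1* a log2 fold change of 0.03. *Fbln2*, which binds elastin and fibrillin-1, was at 1683, 1963 and 1973 CPM in WT 1, 2 and 3 and 1376, 1534 and 1736 CPM in CharmeKO 1, 2 and 3. CharmeKO 3 lay above WT 1, and the log2 fold change was −0.27 (standard error 0.14, adjusted p = 0.453 from edgeR).

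Of 6 tested proteases that can cleave elastin, 2 had lower and 4 higher values, with a median log2 fold change of 0.03 and 0 called by edgeR. Among the higher ones, *Mmp9* had only 0 to 31 counts in a library and *Ctsl* a log2 fold change of 0.01. *Mmp2*, which encodes gelatinase A, was at 1265, 1769 and 1607 CPM in WT 1, 2 and 3 and at 897, 877 and 1157 CPM in CharmeKO 1, 2 and 3. The groups did not overlap (log2 fold change −0.66, standard error 0.17, adjusted p = 0.123 from edgeR and 0.00227 from DESeq2).

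Receptors of elastin and microfibrils comprise the elastin receptor complex and RGD-binding integrins. Of 9 tested, 7 had lower and 2 higher values, 0 were called by edgeR, 1 was called lower by DESeq2, and the median log2 fold change was −0.05. That gene, *Itga5*, the alpha chain of a fibronectin receptor, was at 253, 306 and 316 CPM in WT 1, 2 and 3 and 153, 165 and 246 CPM in CharmeKO 1, 2 and 3. Its groups were apart (log2 fold change −0.63, adjusted p = 0.174 from edgeR and 0.0188 from DESeq2). *Itgb1*, the beta chain shared by many integrins, was at 1011.5, 838 and 1119 CPM in WT 1, 2 and 3 and 1032, 1041 and 1048.5 CPM in CharmeKO 1, 2 and 3. The CharmeKO values fell within the WT range (log2 fold change 0.07, standard error 0.14, adjusted p = 0.873 from edgeR).

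**Figure D5:**
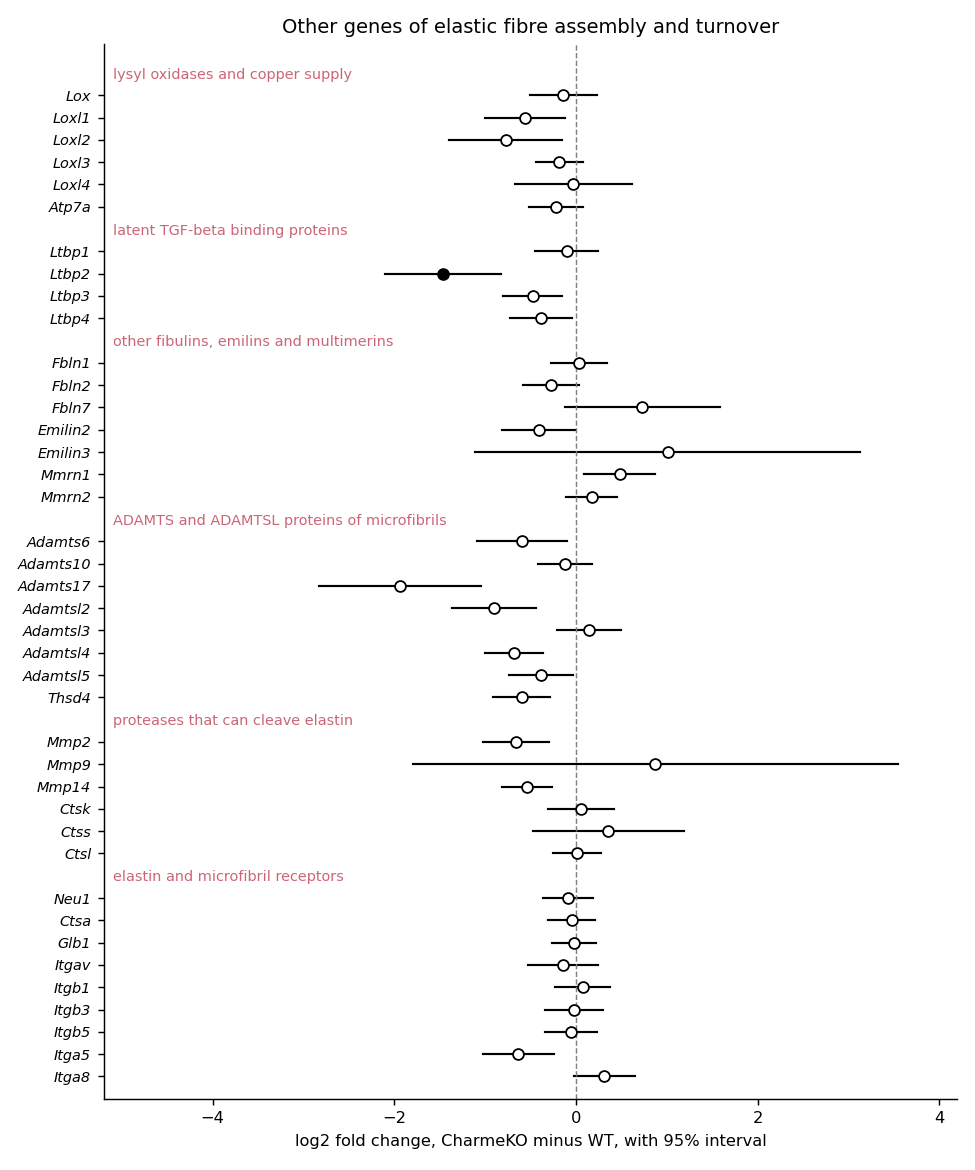
Log2 fold change of CharmeKO against WT, with 95% interval, for the 40 tested genes of elastic fibre assembly and turnover, grouped by role. The filled circle passed an edgeR adjusted p of 0.05 and open circles did not. *Ltbp2* is the filled one at −1.46, and all 6 lysyl oxidase and copper supply genes lie below 0.

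The other matrix lists were set beside the members from the same fit. Of 10 tested fibrillar collagen genes, 7 had lower values, 0 were called by edgeR and 2 called lower by DESeq2 (*Col1a1* and *Col5a2*), and the median log2 fold change was −0.63. *Col1a1* was at 4372, 3130.4 and 4654 CPM in WT 1, 2 and 3 and 2179, 1732 and 3224 CPM in CharmeKO 1, 2 and 3, with groups that overlapped at CharmeKO 3 and WT 2 (log2 fold change −0.77, standard error 0.23, adjusted p = 0.189 from edgeR and 0.0102 from DESeq2). *Col3a1* differed by −0.61 on the log2 scale (standard error 0.25, adjusted p = 0.347 from edgeR and 0.507 from DESeq2). Of 20 tested basement membrane genes, 19 had lower values, 3 were called lower by edgeR and 6 by DESeq2, and the median log2 fold change was −0.51. The share of all tested genes called lower was 0.412% by edgeR and 1.52% by DESeq2.

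Markers of other cell types that carry elastic fibres or could remain in the preparation were compared as summed CPM. Smooth muscle markers summed to 1100 to 1200 CPM in WT and 1050 to 1340 CPM in CharmeKO, with 0 of 8 called by edgeR, and those of pericytes to 1440 to 1840 and 1530 to 1670 CPM, with 0 of 7 called by edgeR. Adventitial fibroblast markers summed to 2720 to 3040 and 2300 to 2890 CPM, with 0 of 6 called by edgeR. These sums overlapped between the groups. Lower values in CharmeKO were found for 3 of 8 smooth muscle, 5 of 7 pericyte and 2 of 6 adventitial fibroblast markers. The median log2 fold changes were 0.19, −0.12 and 0.16. DESeq2 called 1 marker of each list lower and 0 higher, where 1.52% of all tested genes were called lower. These were *Smtn* of smooth muscle (log2 fold change −0.48, DESeq2 adjusted p = 0.0295), *Cspg4* of pericytes (−0.57, 0.0158) and *Cd248* of adventitial fibroblasts (−0.78, 0.00863). Their part in the levels of the members was not tested.

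The epicardial and cardiomyocyte sums did not overlap between the groups. Epicardial markers summed to 56.9 to 71.8 CPM in WT and 34.1 to 40.7 CPM in CharmeKO, with lower values for 6 of 6 genes and *Wt1* called lower. Most of this sum was *Wt1*, at 46.1 to 53.5 CPM in WT and 31.2 to 33.3 CPM in CharmeKO. *Upk3b*, the next highest by mean, was at 2.26 to 9.28 CPM in WT and 0 to 3.19 CPM in CharmeKO. Cardiomyocyte markers summed to 218 to 278 CPM in WT and 322 to 476 CPM in CharmeKO, with higher values for 8 of 8 tested genes. EdgeR called *Tnni3* and *Myh6* higher, and DESeq2 called 4 genes higher. Endocardial markers summed to 247 to 265 CPM in WT and 210 to 222 CPM in CharmeKO, with *Plvap* called lower of 6. Of the 6, 5 had lower values and 1 higher, with log2 fold changes of −0.92 for *Plvap*, −0.07 for *Npr3* and 0.17 for *Cytl1*. The part of these cells in the levels of *Eln* and *Mfap4* was not tested.

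Endothelial markers summed to 7390 to 8880 CPM in WT and 7790 to 9940 CPM in CharmeKO (0 of 8 called), and arterial endothelial markers to 2050 to 2490 and 1770 to 2160 CPM (*Stmn2* called higher of 7). Most of the arterial endothelial sum was *Fbln2*, at 1376 to 1973 CPM, which is also a partner gene. Erythroid markers, mostly globins, summed to 26800 to 39200 CPM in WT and 24400 to 31700 CPM in CharmeKO (0 of 5 called). Leukocyte markers summed to 28.6 to 53.5 and 38.5 to 50.8 CPM (0 of 7 tested called) and Schwann cell markers to 9.92 to 12 and 10.1 to 11.6 CPM (0 of 5 tested called). Among the listed markers of all 12 types, 0 were at 0 in all libraries.

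Exons of 5 members share bases with a gene on the opposite strand, the longest stretch being 2442 bases of *Fbn1* with Gm9913. Gm9913 had 7 to 27 counts in a library where *Fbn1* had 21900 to 104144, and Gm30003, which shares 267 bases with *Eln*, had 0 to 28 counts where *Eln* had 15725 to 86506. Over *Mfap4*, at 4601 to 18056 counts, lies *Mapk7* with 89 shared bases and 402 to 1499 counts, and over *Efemp2*, at 666 to 2974 counts, lies *Mus81* with 173 shared bases and 89 to 571 counts. The counting kept the strand.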

How the data were processed

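Poly(A) RNA of 6 libraries of native CFs (3 WT, 3 CharmeKO), made with a strand-keeping kit, was analysed. The deposited values are raw counts per gene. The authors mapped reads filtered on base quality by STAR (GRCm39 in the submitters' processing notes, which also list GRCh38 and name DESeq2), counted them on Ensembl genes with Charme added and took the reverse strand. No column was left unmapped. Genes that reached 10 counts in 2 or more libraries were tested by edgeR 4.0.16 (TMM, quasi-likelihood F test, Benjamini-Hochberg threshold 0.05, no covariate) in R 4.3.3, and standard errors were taken from the F statistics. The common dispersion of the fit was 0.041, equal to a coefficient of variation of 20.2% between samples. Total counts of 9595701 to 42101393 set the precision. Ratios used counts with 0.5 added. Exon lengths, GC content and overlaps came from GENCODE M21 on GRCm38, another build than that of the counts, and were known for 99.8% of tested genes. Scripts ran in Python 3.11.15 and were tested on simulated data.

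Groups came from the sample labels. The members, the partner, collagen and basement membrane lists and the markers were chosen with earlier results of these data known. The genes named are the members, the partner genes called or highest in each role, *Col1a1*, *Col3a1* and the 5 genes most like *Eln*. Partner and collagen genes called by DESeq2 alone, and *Adamts17* and *Adamtsl2* with values, were named after their values were seen, as were markers, which are named where called or as examples. So were *Emilin3*, *Fbln1*, *Mmp9* and *Ctsl*, named as low in counts or little changed. Alternatives were DESeq2 1.42.0, other size factors and filters, a replicate block, GC and length offsets, a term for the split by Xist and leaving out each library.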

Additional observations from a re-analysis of the deposited data

How the results depend on the processing

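*Eln* was lower past the threshold under all 11 alternatives that kept the 6 libraries, with log2 fold changes of −1.54 to −1.38, and at −1.77 to −1.26 with 1 library left out. The members called lower, 2 here, were 4 with DESeq2, 6 with a filter of 1 count in any library, 1 with library totals alone, 1 with at least 10 counts in 5 libraries, 1 with the term for the Xist split, and 0 to 4 without 1 library. Partner genes called lower, 1 here, were 9 with DESeq2, 11 with the filter of 1 count, 0 with at least 10 counts in 5 libraries, 0 with the GC and length trend removed and 0 to 6 without 1 library, and partner genes called higher were 1 with the filter of 1 count. Over all genes 131 were called here, 394 with DESeq2, 699 with the filter of 1 count and 61 to 349 without 1 library. The filter of 1 count kept 24579 genes, many of them nearly empty, and drew the members' standard errors together. That of *Fbn1* went from 0.272 to 0.162 and that of *Emilin1* from 0.138 to 0.144. Calls under this filter thus rest less on each gene's own spread between samples. *Fbln5*, not called, changed sign with the GC and length trend removed (−0.00106), and without 1 library it ranged from −0.0206 (without WT 3) to 0.175. The *Fbn2* to *Fbn1* ratio ranged from −1.16 to 0.0979 (without CharmeKO 3) and the *Mfap4* to *Fbn1* ratio from −0.00192 (without CharmeKO 1) to 0.217. With the GC and length trend removed *Efemp1* was 0.224 and *Emilin1* −0.105. The cause was not tested. Ratios ranged without 1 library from −0.685 to −0.385 for *Eln* to *Fbn1*, from −0.925 to −0.562 for *Eln* to *Col1a1* and from −1.10 to −0.74 for *Eln* to *Col3a1*, and the summed members' log2 ratio from −1.19 to −0.763. With the replicate block, 5 members and 9 partner genes were called lower and 302 genes in all, and with the block and the GC and length trend removed 5, 8 and 299. Deviations from the group means of libraries with the same number had correlations of 0.216, 0.0535 and 0.161 over 15789 genes, so the number was not taken as a pairing. Each library correlated best with the library of its own number, a hint from the data and not from the design. Counts in WT 3, the shallowest library, limit low genes most.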

Other observations

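Among 8904 tested genes with a mean of at least 10 CPM, the 5 whose pattern over the 6 libraries was most like that of *Eln* were *Ltbp2*, *Col5a3*, *C1qtnf6*, *E2f1* and *Adamts12*, members left out. Likeness was measured as the root mean square difference of log2(CPM + 1) centred on each gene's mean, and was 0.204, 0.212, 0.214, 0.232 and 0.281 in this order. *Col5a3*, a chain of collagen V, was at 958, 794 and 1302 CPM in WT 1, 2 and 3 and 309, 404 and 688 CPM in CharmeKO 1, 2 and 3. *Adamts12*, a metalloprotease gene, was at 67.2, 29.5 and 71.3 CPM in WT 1, 2 and 3 and 16.2, 17.6 and 32.0 CPM in CharmeKO 1, 2 and 3.

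*C1qtnf6*, a C1q and TNF-related gene, and *E2f1*, a cell cycle transcription factor, had log2 fold changes of −1.22 (standard error 0.29) and −1.42 (standard error 0.35). Of these 5 genes, *Ltbp2* passed the edgeR threshold, and *Col5a3*, *C1qtnf6*, *E2f1* and *Adamts12* had edgeR adjusted p-values of 0.105, 0.103, 0.113 and 0.105. Within the members, *Fbn1* was nearest to *Eln* at 0.336, then *Mfap4* at 0.390, *Mfap2* at 0.467 and *Mfap5* at 0.504, and *Fbln5* at 0.909 and *Efemp1* at 1.01 were farthest. The genes were chosen for this likeness, so that it is a description over 6 libraries.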
